A study of Homo sapiens with 21 samples.

Results

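The 9 chromatin genes that act opposite to, or beside, the polycomb repressive complex PRC2 were followed in tumours treated with PRC2 inhibitors. They are KDM6A, KDM6B, EP300, CREBBP, KMT2A, KMT2C, KMT2D, NSD1 and NSD2. They were chosen by name, matched to their Ensembl identifiers, and make up 9 of the 57500 genes counted; all 9 passed the filter on low counts, which left 21958 genes for testing. RNA came from tumours that HT1376 cells, an established line from a human bladder carcinoma, formed under the skin of female CB17 SCID mice that were 6 to 8 weeks old at the start. Such hosts lack functional T and B lymphocytes and keep their myeloid and natural killer cells. There were 7 groups of 3 libraries: a vehicle group, and groups given tazemetostat, CPI-1205, PF-06821497, CPI-0209, Valemetostat or MAK683. The compounds were given at 75 mg/kg by mouth once a day, starting 11 to 15 days after implantation. Tumours were taken 1 hour after dosing on day 15. All 21 libraries derive from 1 cell line, and since the labels do not tie a library to an animal, a p-value here rests on library-to-library spread that may be technical. MAK683 is known to bind the PRC2 subunit EED, and the other 5 compounds are known to act at the catalytic subunit EZH2. Valemetostat is known to act at EZH1 as well, and action of the other compounds at EZH1 was not examined here.

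PRC2 places methyl groups on lysine 27 of histone H3 (H3K27), a mark of repressed genes. KDM6A (UTX) and KDM6B (JMJD3) are the enzymes that remove this mark. EP300 (p300) and its paralogue CREBBP (CBP) acetylate the same lysine at active enhancers and promoters, which blocks its methylation. KMT2A (MLL1), KMT2C (MLL3) and KMT2D (MLL4) methylate H3K4. KMT2A is best known at promoters, and KMT2C and KMT2D at enhancers, in complexes that also hold KDM6A. NSD1 and NSD2 dimethylate H3K36, a mark that hinders PRC2 on the same histone tail. KDM6A, KMT2D, KMT2C, EP300 and CREBBP are among the chromatin genes often mutated in bladder carcinoma; mutations were not analysed here, and the values are RNA levels, not enzyme activity or histone marks.

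KDM6A and KDM6B encode the paralogous H3K27 demethylases, and the sequences before their transcription starts are shown side by side. They are the 250 bases upstream of the start, 5′ to 3′ on the plus strand, from RefSeq on GRCh38.p14. The KDM6A window is chrX:44872938-44873187. RefSeq gives KDM6B more than 1 start. The upstream one has the window chr17:7833967-7834216, and the one 13 bases from the start of the counted gene model has chr17:7839667-7839916. Capitals mark letters of the motifs searched.
KDM6A window: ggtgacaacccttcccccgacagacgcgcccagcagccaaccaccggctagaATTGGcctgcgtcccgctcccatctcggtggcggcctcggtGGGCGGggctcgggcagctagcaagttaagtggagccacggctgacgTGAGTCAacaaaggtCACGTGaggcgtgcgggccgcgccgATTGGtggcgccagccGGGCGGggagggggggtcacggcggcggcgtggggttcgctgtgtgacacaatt
KDM6B window, upstream start: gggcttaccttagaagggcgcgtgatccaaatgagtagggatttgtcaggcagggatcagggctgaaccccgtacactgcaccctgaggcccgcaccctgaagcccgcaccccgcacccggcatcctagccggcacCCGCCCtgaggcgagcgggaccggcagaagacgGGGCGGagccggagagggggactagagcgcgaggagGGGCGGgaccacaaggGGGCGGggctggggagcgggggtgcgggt
KDM6B window, start nearest the counted gene model: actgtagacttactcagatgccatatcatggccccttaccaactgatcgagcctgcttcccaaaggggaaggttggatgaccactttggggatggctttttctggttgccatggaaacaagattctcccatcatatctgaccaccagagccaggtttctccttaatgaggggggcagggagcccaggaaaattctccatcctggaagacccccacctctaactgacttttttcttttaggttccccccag

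The search on both strands used the cyclic AMP response element TGACGTCA, the AP-1 site TGANTCA, the CCAAT box CCAAT, the GC box GGGCGG, the E-box CACGTG, the ETS core CCGGAAG and the TATA box TATAAA. The KDM6A window held 2 CCAAT boxes, 2 GC boxes, 1 AP-1 site and 1 E-box. The upstream KDM6B window held 4 GC boxes and none of the other motifs, and the downstream KDM6B window held none of those searched. Among 35116 RefSeq windows of the same length, 42.6% held a GC box, 32.0% a CCAAT box, 6.57% an AP-1 site and 6.34% an E-box. The KDM6A window had 27 CpG dinucleotides, more than 82.3% of windows, and the upstream KDM6B window had 21, more than 69.8%. The downstream KDM6B window had 1 CpG. These matches describe letters only, since binding and marks at the windows were not measured.

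All 9 genes were expressed in every library, with 562 (a KDM6A count) to 5612 (an NSD2 count) reads per gene and library. Library totals ran from 9725690 counts (CPI-0209 replicate 3) to 25771778. Levels are given as CPM, counts scaled to the TMM-adjusted library size, and between genes as CPM per 1000 exon bases. On the per-length scale, mean ± SD in vehicle (n = 3) was 12.8 ± 1.05 for KDM6B, 11.6 ± 2.51 for EP300 and 11.2 ± 0.956 for NSD2, differences smaller than the spread of EP300. NSD1 (8.82 ± 1.63), KMT2D (8.62 ± 2.58) and KMT2A (6.86 ± 1.17) followed. CREBBP (5.93 ± 0.792), KDM6A (5.35 ± 0.597) and KMT2C (3.83 ± 0.867) were lowest. KDM6B, the stimulus-responsive demethylase, thus had about the highest level per length of these genes. That order depends on the exon length counted for each gene, 19776 bases for NSD2 against 7258 for KDM6B. Before division by length, NSD2 stood at a mean of 222 CPM in vehicle and KDM6B at 92.9 CPM. Which transcripts of each gene were present was not examined. The mean per length over all 21 libraries was 10.2 for KDM6B against 5.14 for KDM6A.

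In the comparisons with vehicle, each member that passed the test was lower with the compound, and none was higher. A gene was called when its edgeR quasi-likelihood p, adjusted by Benjamini-Hochberg over 21958 genes, was under 0.05. With CPI-0209, 5 of 9 were called lower (KDM6B, EP300, KMT2A, NSD1 and NSD2), where 18.8% of all genes were called lower and 22.3% higher. With Valemetostat, 2 of 9 were lower (KDM6B and KMT2A), against 12.2% of all genes lower and 15.0% higher. With PF-06821497, KDM6B alone was lower, 1 of 9, against 3.59% of all genes lower and 5.96% higher.

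No member was called by edgeR with MAK683, where 5.17% of all genes were lower and 10.4% higher. None of the 9 had an unadjusted p under 0.05, against 27.3% of all genes. The same held for tazemetostat, where the share of all genes called was 0% and 647 genes (2.95%) had an unadjusted p under 0.05. With CPI-1205 the share called was also 0%, with 2713 genes (12.4%) under 0.05 unadjusted, and 4 members were among them (KDM6B, EP300, CREBBP and NSD1). DESeq2 and limma-voom called 0 members as well in these 3 comparisons. All 6 comparisons share the same 3 vehicle libraries, so they are not independent of each other.

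The size of the differences can be read from the medians over the 9 genes. The median log2 fold change of the members was -0.43 with CPI-0209, -0.37 with Valemetostat, -0.35 with CPI-1205, -0.31 with PF-06821497, -0.15 with MAK683 and -0.10 with tazemetostat. Over all genes tested, the medians lay between -0.02 and 0.02. The fold change was negative for all 9 genes with Valemetostat, tazemetostat, PF-06821497 and CPI-1205, for 8 with CPI-0209 (all but KDM6A) and for 7 with MAK683 (all but KDM6A and CREBBP). Between 47.8% and 51.0% of all genes had a negative sign in these comparisons. Without vehicle replicate 3 the members' medians were -0.29 with CPI-0209, -0.17 with Valemetostat, -0.18 with CPI-1205, -0.12 with PF-06821497, 0.00 with MAK683 and 0.04 with tazemetostat. Then 1 gene was negative with tazemetostat and 5 with MAK683.

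**Figure D1:**
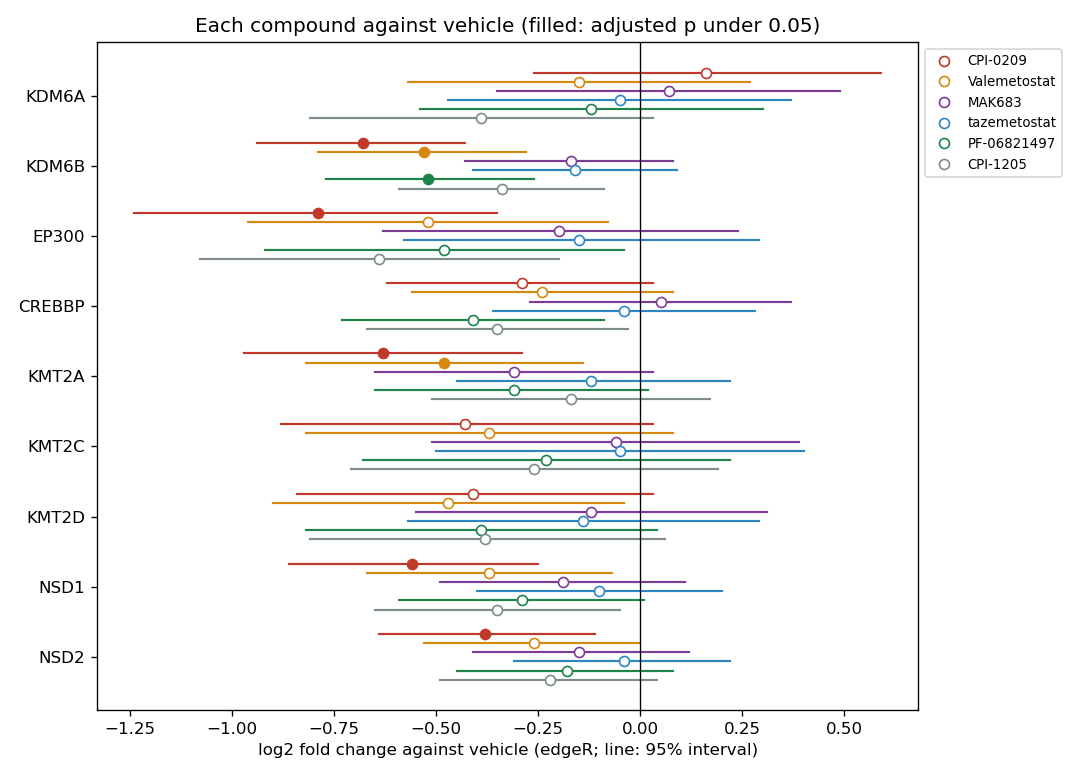
Log2 fold change of each of the 9 genes against vehicle for the 6 compounds (x axis, edgeR), with the 95% interval as a line and filled points for adjusted p under 0.05. The 8 filled points all lie left of 0: 5 for CPI-0209, 2 for Valemetostat and 1 for PF-06821497.

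KDM6B, the demethylase known to be induced by many stimuli, was the member that fell with 3 of the 6 compounds. Its level was 87.1, 90.0 and 102 CPM in the vehicle libraries and 57.2, 60.2 and 56.3 CPM with CPI-0209. It was 67.0, 60.2 and 65.3 CPM with Valemetostat, and 75.0, 56.0 and 63.6 CPM with PF-06821497. All 9 of these treated libraries were below the lowest vehicle library. MAK683 gave 85.5, 77.4 and 84.0 CPM, tazemetostat 81.9, 79.1 and 88.3 CPM, and CPI-1205 87.7, 71.2 and 61.5 CPM. The MAK683 libraries stood just under the vehicle range, while tazemetostat and CPI-1205 each had 1 library inside it. In total 16 of 18 treated libraries were below the lowest vehicle library.

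Against vehicle, KDM6B fell by 0.68 ± 0.12 (SE) on the log2 scale with CPI-0209, or 37.6% (adjusted p 0.000146 by edgeR). It fell by 0.53 ± 0.12 with Valemetostat (adjusted p 0.00236) and by 0.52 ± 0.12 with PF-06821497 (adjusted p 0.00893). The intervals for the uncalled compounds were -0.43 to 0.08 for MAK683, -0.41 to 0.09 for tazemetostat and -0.59 to -0.09 for CPI-1205 (log2 fold change -0.34, adjusted p 0.311). The CPI-1205 interval includes the estimated falls with Valemetostat and PF-06821497, and those of MAK683 and tazemetostat do not reach them. These estimates have their own error, however. The intervals for Valemetostat (-0.79 to -0.28) and PF-06821497 (-0.77 to -0.26) overlap those of MAK683 and tazemetostat. When MAK683 or tazemetostat was tested directly against Valemetostat or PF-06821497, only Valemetostat against tazemetostat was called for KDM6B. Without vehicle replicate 3, PF-06821497 had an adjusted p of 0.0694 for KDM6B (log2 fold change -0.44), while CPI-0209 and Valemetostat were still called.

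KDM6B was also the only member that differed among the 6 compounds in an overall edgeR test (adjusted p 0.007), where 32.3% of all genes were called. In pairs of compounds, its level with CPI-0209 was below that with MAK683 (log2 difference -0.51 ± 0.12, adjusted p 0.0132), tazemetostat (-0.52 ± 0.12, adjusted p 0.00215) and CPI-1205 (-0.34 ± 0.12, adjusted p 0.0337). With Valemetostat it was below tazemetostat (-0.37 ± 0.12, adjusted p 0.0342). Of 12 alternatives in processing, these calls were made in 11, 12, 4 and 7, in the same order. In these 4 pairs the libraries of the groups did not overlap, which adds little because the pairs were picked as called. The share of all genes without overlap was not counted for pairs of compounds. The share of all genes called in either direction was 9.08%, 37.0%, 35.2% and 20.3% in the same order.

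KDM6A, the X-linked demethylase that works within the KMT2C and KMT2D complexes, had smaller fold changes than KDM6B with CPI-0209, Valemetostat and PF-06821497. With CPI-1205 the log2 estimates were close, at -0.39 for KDM6A and -0.34 for KDM6B. KDM6A stood at 33.7, 38.7 and 42.2 CPM in vehicle and at 35.5, 35.9 and 57.5 CPM with CPI-0209. The values were 28.4, 32.9 and 42.1 CPM with Valemetostat, and 49.9, 27.7 and 42.7 CPM with MAK683. These 3 groups overlapped vehicle, and 1 CPI-0209 library and 2 MAK683 libraries were above its highest value. Tazemetostat gave 37.5, 40.8 and 32.7 CPM, PF-06821497 41.2, 32.1 and 32.3 CPM, and CPI-1205 30.2, 31.9 and 25.2 CPM. The CPI-1205 libraries were the lowest group and lay below every vehicle library, at a log2 fold change of -0.39 ± 0.20 that did not pass (adjusted p 0.43).

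KDM6A was not called against vehicle for any compound, with log2 fold changes from -0.39 to 0.16. The interval for CPI-0209 was -0.26 to 0.59 on the log2 scale. Its positive sign there rested on replicate 3, since without that library the value was -0.10. That library was the shallowest and had the highest level of skeletal muscle markers, a median of 7.41 log2 CPM against -2.19 to 4.91 in the others; their part in the KDM6A value was not tested beyond the left-out library and a covariate, under which the log2 fold change was -0.19. KDM6A was higher with CPI-0209 than with CPI-1205 (log2 difference 0.56 ± 0.20, adjusted p 0.0385, edgeR). That call was lost without CPI-0209 replicate 3 (0.30, adjusted p 0.293), without CPI-1205 replicate 1 (0.57, adjusted p 0.0658) or 3 (0.48, adjusted p 0.112), and with the muscle covariate (0.15, adjusted p 0.591).

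**Figure D2:**
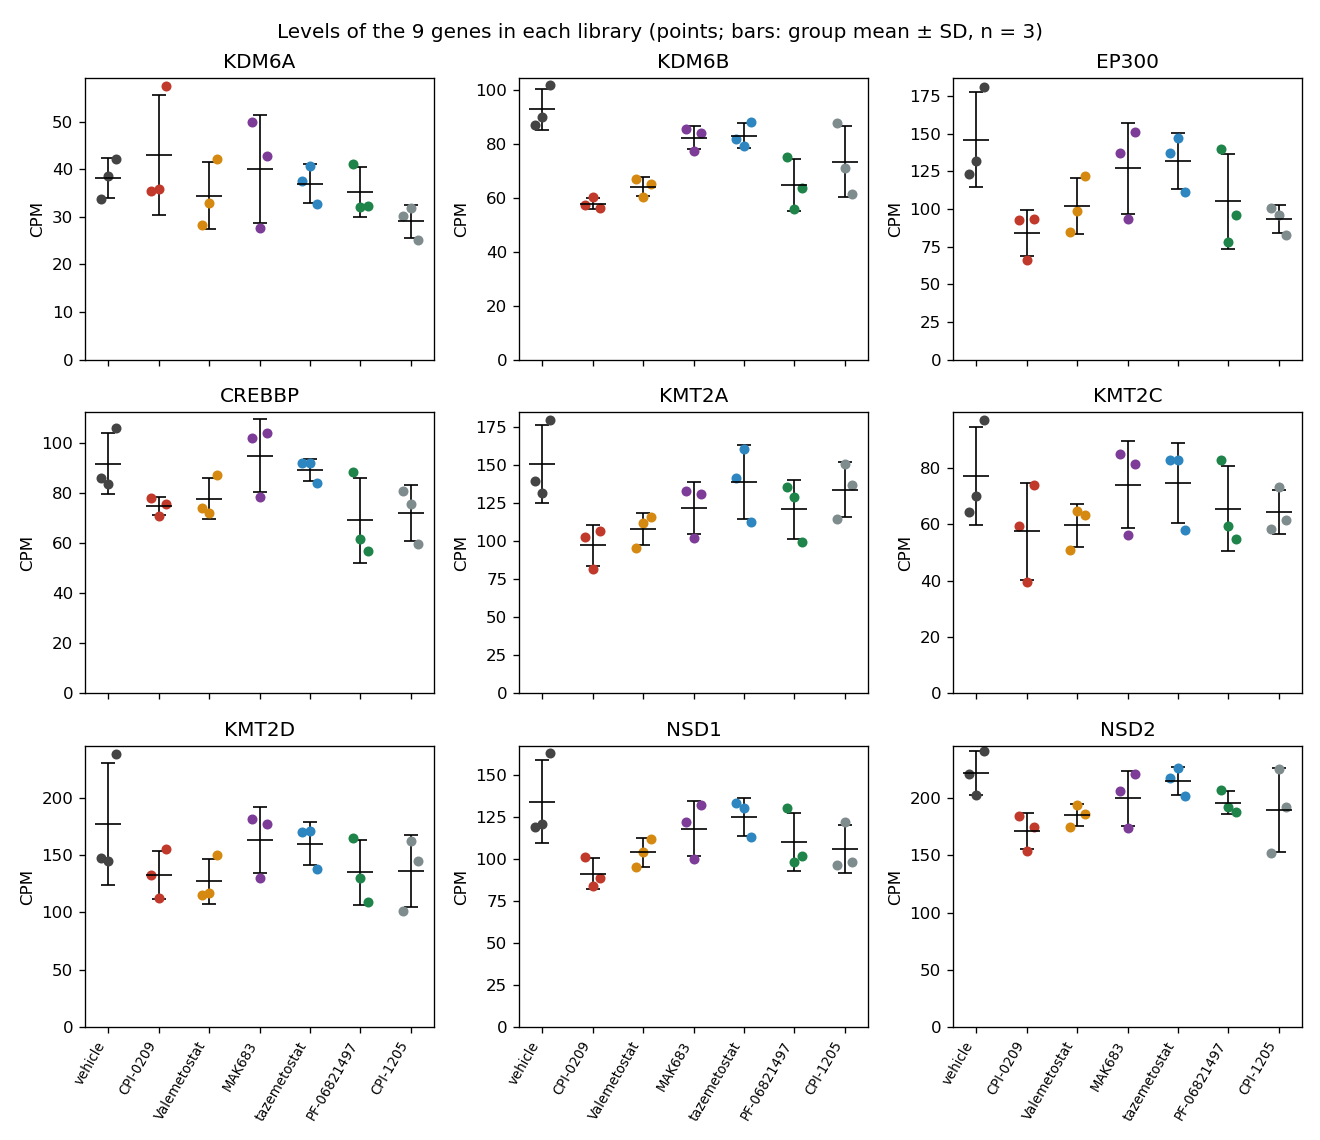
CPM of the 9 genes in each of the 21 libraries (points), with group mean ± SD (n = 3); each y axis starts at 0. KDM6B was at 56.3 to 60.2 CPM in the CPI-0209 libraries and 87.1 to 102 CPM in vehicle, while KDM6A overlapped vehicle in that group.

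The ratio of KDM6B to KDM6A within a library is free of the scaling between libraries, and was examined after the values of both genes were known. Per exon base it was 2.54, 2.29 and 2.37 in vehicle, so KDM6B was above KDM6A in each. It was 1.59, 1.65 and 0.962 with CPI-0209, and 1.79, 1.72 and 1.94 with PF-06821497, so both groups were below every vehicle library. The mean log2 ratio differed from vehicle by -0.82 with CPI-0209 and by -0.40 with PF-06821497 (each p = 0.1 in a two-sided exact permutation test, the smallest p that 3 against 3 libraries allow). With Valemetostat the ratio was 1.52 to 2.32, which overlapped vehicle (exact permutation p = 0.2). MAK683, tazemetostat and CPI-1205 overlapped vehicle too, at 1.69 to 2.74, 1.91 to 2.66 and 2.19 to 2.86.

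**Figure D3:**
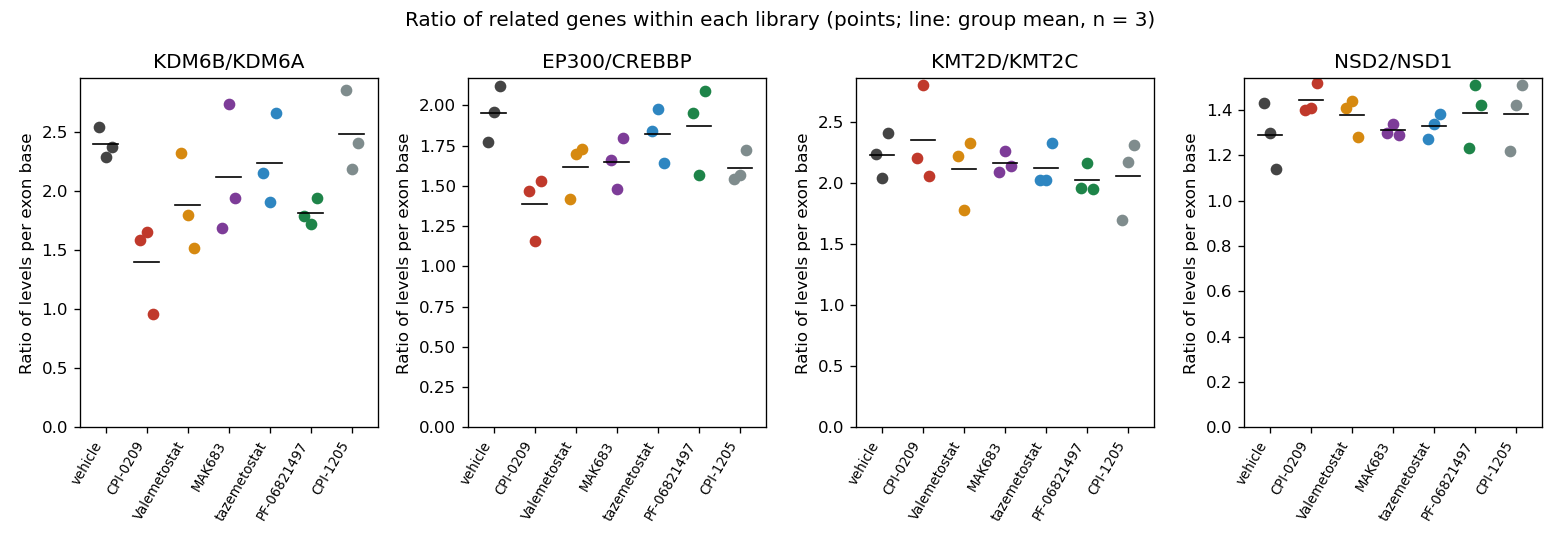
Within-library ratio of levels per exon base for 4 pairs of related genes (y axes from 0), 1 point per library with the group mean as a line. KDM6B/KDM6A lies at 0.962 to 1.65 with CPI-0209 and at 2.29 to 2.54 in vehicle; KMT2D/KMT2C and NSD2/NSD1 overlap vehicle in each of the 6 compound groups.

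EP300, the gene of the p300 acetyltransferase, had the largest fold changes among the members with CPI-0209. Vehicle libraries stood at 123, 132 and 181 CPM and CPI-0209 libraries at 92.9, 66.3 and 93.3 CPM, with no overlap. This was a log2 fold change of -0.79 ± 0.21, or 42.2% lower (adjusted p 0.00511, edgeR). The CPI-1205 libraries stood at 101, 96.0 and 82.8 CPM and the Valemetostat libraries at 84.7, 99.0 and 122 CPM. Both groups lay below vehicle but did not pass, at -0.64 ± 0.21 (adjusted p 0.291) and -0.52 ± 0.21 (adjusted p 0.0758). The unadjusted p for EP300 with CPI-1205 was 0.00632. PF-06821497 gave 140, 78.3 and 96.2 CPM, MAK683 137, 93.3 and 151 CPM, and tazemetostat 137, 147 and 111 CPM. These 3 groups overlapped vehicle. The CPI-0209 level was below the tazemetostat level (-0.65 ± 0.21, adjusted p 0.0213).

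CREBBP, the paralogue of EP300, changed less and was not called in any comparison with vehicle. It ran from 83.5 to 106 CPM in vehicle, from 71.0 to 78.2 CPM with CPI-0209 and from 59.7 to 81.0 CPM with CPI-1205. Those 2 treated groups lay below vehicle without overlap, with log2 fold changes of -0.29 ± 0.16 (adjusted p 0.14, edgeR) and -0.35 ± 0.15 (adjusted p 0.369). PF-06821497 gave 88.6, 61.8 and 57.1 CPM and overlapped vehicle through replicate 1, at -0.41 ± 0.15 (adjusted p 0.105). That library's title carries a resubmission mark and the number 1, while the name of its count table has the number 3 and no mark, and the table named with the mark belongs to the library titled 2; title numbers are used throughout, and which library was resubmitted cannot be told apart. Without the library titled 1, CREBBP was called at -0.61 (adjusted p 0.0123) and EP300 at -0.72 (adjusted p 0.0358). MAK683 was close to vehicle at 0.05 ± 0.15, with an interval of -0.27 to 0.37. The EP300 to CREBBP ratio per exon base was 1.77 to 2.12 in vehicle. It was 1.16 to 1.53 with CPI-0209, 1.42 to 1.73 with Valemetostat and 1.54 to 1.72 with CPI-1205. These did not overlap vehicle (exact permutation p = 0.1 each, the smallest possible). MAK683 (1.48 to 1.80), tazemetostat (1.64 to 1.98) and PF-06821497 (1.57 to 2.09) overlapped it. The ratio comes from the EP300 and CREBBP values above and is not separate support.

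Of the H3K4 methyltransferases, KMT2A fell with CPI-0209 and Valemetostat. KMT2A libraries stood at 140, 132 and 180 CPM in vehicle, at 103, 81.6 and 107 CPM with CPI-0209, and at 95.9, 112 and 116 CPM with Valemetostat. The vehicle libraries were above all 6 of these treated libraries. The log2 fold changes were -0.63 ± 0.16 (adjusted p 0.00375, edgeR) and -0.48 ± 0.16 (adjusted p 0.0318). For Valemetostat the call was lost without vehicle replicate 3 (-0.31, adjusted p 0.229) and without Valemetostat replicate 1 (-0.40, adjusted p 0.125), 2 (-0.52, adjusted p 0.052) or 3 (-0.51, adjusted p 0.0533). The other groups ran from 99.5 to 161 CPM in KMT2A and overlapped vehicle. With CPI-0209 the KMT2A level was also below tazemetostat (-0.51 ± 0.16, adjusted p 0.0172) and CPI-1205 (-0.46 ± 0.16, adjusted p 0.0312).

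KMT2C and KMT2D, the enhancer methyltransferases, were not called with any compound in the main test. KMT2C stood at 64.2, 70.1 and 96.9 CPM in vehicle and at 59.3, 39.5 and 73.8 CPM with CPI-0209. KMT2D stood at 147, 145 and 238 CPM in vehicle and at 133, 113 and 155 CPM with CPI-0209. Both overlapped vehicle in all 6 comparisons, and vehicle replicate 3 was far above the other vehicle libraries. The log2 fold changes with CPI-0209 were -0.43 ± 0.22 for KMT2C (adjusted p 0.127, edgeR) and -0.41 ± 0.21 for KMT2D (adjusted p 0.125). With intervals of -0.88 to 0.03 and -0.84 to 0.03, a fall as large as that of KMT2A is within the error of both. With CPI-0209 both were called with no filter on low counts (adjusted p 0.00724 for KMT2C and 0.00967 for KMT2D) and with the muscle covariate (0.00272 and 0.00609), and KMT2C without CPI-0209 replicate 3 (-0.64, adjusted p 0.0372). With Valemetostat, KMT2D was called with no filter (adjusted p 0.011) and both with the covariate (0.0286 and 0.0145). The ratio of KMT2D to KMT2C overlapped vehicle in each group, with mean log2 differences from -0.14 to 0.07.

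Both H3K36 dimethyltransferase genes fell with CPI-0209. NSD1 stood at 119, 121 and 163 CPM in vehicle and at 101, 83.9 and 88.8 CPM with CPI-0209, a log2 fold change of -0.56 ± 0.15 (adjusted p 0.00417, edgeR). NSD2 stood at 221, 203 and 241 CPM in vehicle and at 184, 154 and 175 CPM with CPI-0209, a log2 fold change of -0.38 ± 0.13 (adjusted p 0.022). Neither gene's CPI-0209 libraries overlapped vehicle. The NSD2 call was lost with upper-quartile scaling (-0.24, adjusted p 0.113), with a filter of 1 CPM in 3 libraries (-0.30, adjusted p 0.0553) and with a gene length trend removed (-0.20, adjusted p 0.142). It was also lost without vehicle replicate 3 (-0.29, adjusted p 0.123) or CPI-0209 replicate 2 (-0.32, adjusted p 0.091), and the NSD1 call without vehicle replicate 3 (-0.37, adjusted p 0.0556).

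With Valemetostat, NSD1 (95.5 to 112 CPM) and NSD2 (175 to 194 CPM) also lay below vehicle without overlap, but neither passed the test. The log2 fold changes were -0.37 ± 0.15 (adjusted p 0.0622) and -0.26 ± 0.13 (adjusted p 0.136). Against tazemetostat, CPI-0209 was lower for NSD1 (-0.46 ± 0.15, adjusted p 0.0181, edgeR) and NSD2 (-0.33 ± 0.13, adjusted p 0.0441). The other 4 groups ran from 96.3 to 133 CPM for NSD1 and from 152 to 226 CPM for NSD2, and all overlapped vehicle.

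Across all 15 pairs of compounds, 10 tests of a member passed out of 9 a pair, where 12.2% of all gene tests did. Of these, 9 involved CPI-0209 and 1 compared Valemetostat with tazemetostat. Only KDM6B between CPI-0209 and tazemetostat was called with each library of the pair left out in turn, and the other 9 calls were each lost without at least 1 library of their pair. Of 6 libraries left out, the calls against tazemetostat were made in 3 for EP300 and KMT2A, 2 for NSD1 and 1 for NSD2 with CPI-0209, and in 0 for KDM6B with Valemetostat. Against CPI-1205 they were made in 3 for KDM6A and 2 for KDM6B and KMT2A, and against MAK683 in 4 for KDM6B. No member was called between CPI-0209 and Valemetostat, where edgeR called 0% of all genes and 2708 (12.3%) had an unadjusted p under 0.05. DESeq2 called 380 genes and limma-voom 61, with 0 members each. The log2 differences ran from -0.28 (EP300, interval -0.72 to 0.17) to 0.31 (KDM6A, interval -0.11 to 0.74). No member was called in the 6 pairs among MAK683, tazemetostat, PF-06821497 and CPI-1205, where edgeR called 15.4% of all genes for MAK683 against CPI-1205, 9.20% for MAK683 against tazemetostat, and 0% to 4.80% in the other 4. When the 7 groups were ordered by mean level for each gene, no neighbours in the order could be told apart; sorting first leaves only the smallest differences, so this says little on its own. Vehicle was the highest group for 7 of the genes, and MAK683 was above it for CREBBP, and CPI-0209 and MAK683 for KDM6A. Groups of libraries that did not overlap vehicle on the low side were seen for 6 members with CPI-0209 (27.5% of all genes), 5 with Valemetostat (23.7%), 3 with CPI-1205 (10.7%), 1 with PF-06821497 (13.2%), 1 with MAK683 (16.8%) and 0 with tazemetostat (4.85%).

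Single libraries moved many members at once. Vehicle replicate 3 was the highest vehicle library for all 9 genes, and PF-06821497 replicate 1, with the mark in its title, was the highest of its group for all 9. MAK683 replicate 2 was the lowest of its group for all 9, tazemetostat replicate 3 for 8, and CPI-0209 replicate 2 and Valemetostat replicate 1 for 7 each. Without vehicle replicate 3, the members called lower numbered 3 with CPI-0209 (KDM6B, EP300 and KMT2A), 1 with Valemetostat (KDM6B) and 0 with PF-06821497 by edgeR, where 13.1%, 7.01% and 1.27% of all genes were lower.

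The members are long transcripts, and the level of long transcripts as a class differed between libraries in the same direction. The exon length of KDM6A and KDM6B was 7139 and 7258 bases, and the other 7 had 12500 (EP300) to 21961 (KMT2A), at or above the 96.2 percentile of genes tested. Over the 1749 genes of at least 10000 exon bases, the median log2 deviation of a library from the mean of all libraries ran from -0.22 (CPI-0209 replicate 2) to 0.15 (MAK683 replicate 1), and was 0.13 in vehicle replicate 3. As a description over 21 libraries that share depth and RNA quality with the measure, Pearson's r of a member with it was 0.93 for KMT2C, 0.89 for EP300 and 0.79 to 0.86 for the other 5 long members. It was 0.59 for KDM6A and 0.58 for KDM6B.

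Long genes as a class were also lower with some compounds. With CPI-0209, 31.9% of them were called lower and 22.4% higher, at a median of -0.17, and with Valemetostat 22.1% lower and 15.2% higher, at -0.15. When the trend of level on gene length was removed library by library, 4 of the 5 calls with CPI-0209 were still made. KDM6B then stood at -0.53 (adjusted p 0.00157, edgeR), EP300 at -0.61 (0.00473), KMT2A at -0.46 (0.00136) and NSD1 at -0.36 (0.00927). Under that setting Valemetostat was still called for KDM6B (-0.42, adjusted p 0.0126) and KMT2A (-0.32, adjusted p 0.0293), and PF-06821497 for KDM6B (-0.43, adjusted p 0.028). The shares of long genes above are from the main fit. These calls are not set beside the share of all genes called under the length setting. That they were still made cannot be read as particular to the members. RNA quality was not measured in these files, and its part in the differences was not tested.

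**Figure D4:**
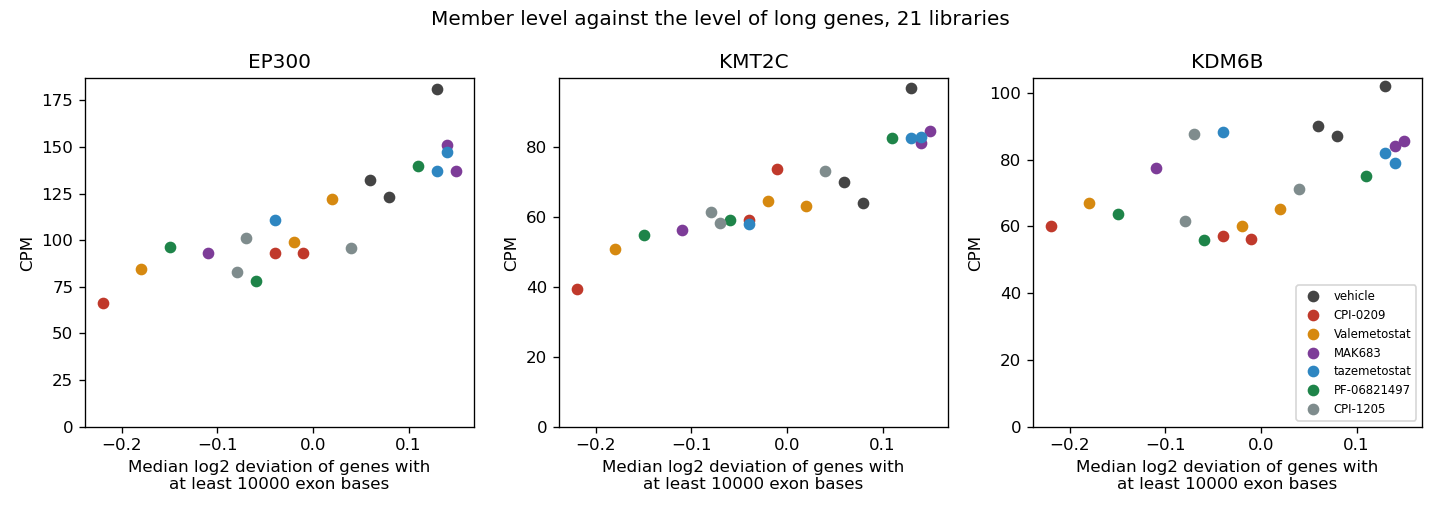
CPM of EP300, KMT2C and KDM6B (y axes from 0) against the median log2 deviation of genes with at least 10000 exon bases (x axis), 1 point per library, coloured by group. KMT2C follows the x axis across groups (r = 0.93), while the CPI-0209 libraries of KDM6B stay at 56.3 to 60.2 CPM over an x range of -0.22 to -0.01.

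The highest correlation between members over 21 libraries was between EP300 and NSD1 (r = 0.92), followed by NSD1 and NSD2 (0.89), and KMT2C and KMT2D (0.87). The lowest was between KDM6A and KDM6B (0.13). After the group means were subtracted, KMT2A and KMT2D (0.90) and KMT2A and KMT2C (0.89) were highest, and KDM6B had -0.21 with NSD2 and -0.09 with KMT2A. KDM6B then had 0.71 with CREBBP, and KDM6A 0.80 with KMT2C and 0.78 with EP300. Long members were not alike throughout, since CREBBP and NSD2 had 0.51 over all libraries and 0.37 within groups. These libraries share depth and the long-transcript trend above.

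The genes whose log2 CPM was most like each member's over the 21 libraries were named by Pearson's r, among 15260 genes with a symbol and a mean of at least 1 CPM. For KDM6B they were NOTCH3, a Notch receptor (0.942), CIC, a transcriptional repressor (0.940), and HSPG2, which encodes perlecan (0.938). For KDM6A they were the ubiquitin ligase gene CUL3 (0.942), RANBP9 (0.939) and CALU (0.928). EP300 had CLIP1, ATP11A and GTF2I (0.960 each), and CREBBP had HUWE1 (0.916), ARHGEF11 (0.912) and RERE (0.911). KMT2A had MYO9A (0.968), TRIM44 (0.965) and PURB (0.958), KMT2C had NCOA2 (0.962), TAOK1 (0.958) and HIPK1 (0.950), and KMT2D had SMG1P1 (0.943), ARFGEF2 (0.934) and GAPVD1 (0.932). NSD1 had GSPT1 (0.970), RNF169 (0.968) and AFF1 (0.966), and NSD2 had ACLY (0.959), NAA50 (0.949) and NORAD (0.945). GTF2I and SMG1P1 have near-identical copies, so their own counts are uncertain.

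Other genes of the same chemistry were counted in 12 lists, with 103 of 104 genes tested beside the members. With CPI-0209, 29 were called lower and 6 higher (median log2 fold change -0.16), and with Valemetostat 18 lower and 7 higher (-0.15). MAK683 had 3 lower and 5 higher (-0.05), PF-06821497 5 lower and 2 higher (-0.10), and tazemetostat (-0.03) and CPI-1205 (-0.15) none by edgeR. DESeq2 called 1 lower with CPI-1205. The share of all genes called is given above for each comparison. With upper-quartile scaling the count for CPI-0209 was 15 lower and 13 higher.

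KDM7A, the other H3K27 demethylase listed, was higher with MAK683 (44.2 ± 13.1 against 21.9 ± 2.14 CPM in vehicle, log2 fold change 1.01 ± 0.29, adjusted p 0.019, edgeR) and was not called with the other 5. Of 6 core PRC2 genes, 4 were called with CPI-0209 and 3 with Valemetostat (2 higher, 1 lower). EZH2 (0.27) and EED (0.56 ± 0.13) were higher and EZH1 (-0.38) and RBBP4 (-0.41 ± 0.09) lower with CPI-0209. Of 10 other histone acetyltransferases, KAT2B (PCAF) alone was lower with CPI-0209, at 19.0 ± 2.06 against 38.5 ± 7.83 CPM (-1.02 ± 0.17, adjusted p 5.89e-05). KAT2B (-0.93 ± 0.17) and KAT6B (-0.57 ± 0.18) were lower with Valemetostat.

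Partners and erasers of acetylation held genes called in both directions, and the readers only genes called lower in these 6 comparisons. Of 11 tested CBP and p300 partners, 3 were lower with CPI-0209, among them the CREB coactivator gene CRTC3 (-0.40 ± 0.11), and CREM, a cyclic AMP responsive factor, was higher (0.81 ± 0.15). Of 14 deacetylases and corepressors, 3 were lower, including RCOR1 (-0.51 ± 0.14), and HDAC9 was higher, at 33.1 ± 0.822 against 14.6 ± 2.66 CPM (1.18 ± 0.24, adjusted p 0.000517, edgeR). HDAC9 also rose with Valemetostat (1.15), MAK683 (1.10) and PF-06821497 (0.91). Of 12 acetyl-lysine readers, 5 were lower with CPI-0209 and none higher. Among them MLLT3, a reader of acetylated lysine, had a log2 fold change of -0.87 ± 0.18.

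Pooled over the H3K4 and H3K36 lists, most genes were not called with CPI-0209. In the main fit most of the few listed demethylases were called lower, where 18.8% of all genes were. Fewer listed genes were called lower with upper-quartile scaling or the length offset, and the demethylase calls under those settings are not given here. Of 5 H3K4 demethylases 3 were lower, with KDM5B at 121 ± 6.73 against 205 ± 7.32 CPM (-0.76 ± 0.11, adjusted p 1.24e-05, edgeR). KDM5B was also lower with Valemetostat (-0.56), MAK683 (-0.33) and PF-06821497 (-0.41). Of 14 COMPASS subunits, the partners of the H3K4 methyltransferases, 3 were lower, including CXXC1 (-0.47 ± 0.13). Of 7 other H3K4 methyltransferases, SETD1A was lower and SMYD3 higher (0.68 ± 0.15), and SMYD3 rose with Valemetostat (0.79), MAK683 (0.57) and PF-06821497 (0.80) too. Of 7 other H3K36 methyltransferases 3 were lower, namely ASH1L, SMYD2 (-0.73 ± 0.09) and NSD3, the third NSD gene (85.9 ± 15.5 against 141 ± 13.8 CPM, -0.72 ± 0.15, adjusted p 0.000525). NSD3 fell with Valemetostat (-0.66) and PF-06821497 (-0.48) as well. Of 6 H3K36 demethylases 4 were lower, with KDM4B at -0.78 ± 0.13. Among 10 readers of methylated H3K36, MSH6 was lower (-0.47 ± 0.10) and DNMT3B higher (0.85 ± 0.14).

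**Figure D5:**
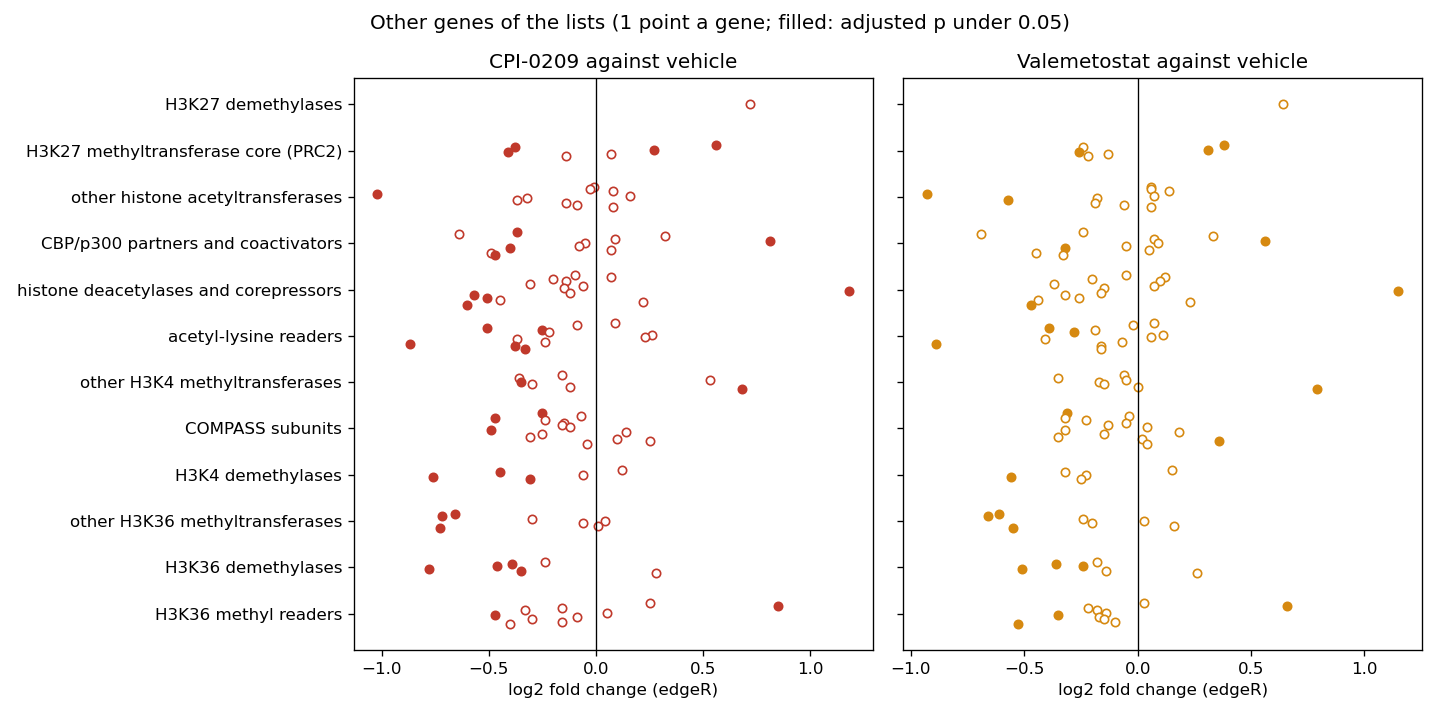
Log2 fold change (x axis, edgeR) of the listed genes other than the 9 members with CPI-0209 (left) and Valemetostat (right), 1 point per gene, filled for adjusted p under 0.05. With CPI-0209 29 filled points lie left of 0 and 6 right of it, the largest of them HDAC9 at 1.18.

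The libraries carried carcinoma markers in every group, with all 12 epithelial genes tested and a summed level of 11530 to 22642 CPM. With CPI-0209 that sum was 11530 to 13709 CPM against 17977 to 19029 CPM in vehicle. There 6 of the 12 were called lower and 1 higher. The genes called higher were 4 of 10 for skeletal muscle, with 1 lower, (303 to 1626 against 460 to 527 CPM), 7 of 11 for fibroblasts, with 2 lower (1754 to 4433 against 1278 to 2051 CPM) and 4 of 7 for endothelium, with 2 lower (35.7 to 48.3 against 8.28 to 9.13 CPM). They were 6 of 9 for macrophages and granulocytes, with 1 lower (170 to 205 against 154 to 184 CPM), 3 of 3 for lymphocytes (6.02 to 7.24 against 1.97 to 2.58 CPM), 2 of 2 for adipocytes (36.1 to 43.9 against 4.57 to 5.66 CPM) and 0 of 2 for red blood cells. With Valemetostat the genes called higher and lower were 1 and 2 for carcinoma epithelium, 0 and 1 for muscle, 5 and 2 for fibroblasts, 3 and 2 for endothelium, 4 and 1 for macrophages and granulocytes, 3 and 0 for lymphocytes and 2 and 0 for adipocytes. Its epithelial sum was 12478 to 20458 CPM, which overlapped vehicle. With PF-06821497 they were 3 and 1 for fibroblasts, 1 and 1 for endothelium, and 0 and 0 for epithelium and muscle. They were 1 and 0 each for macrophages and granulocytes, lymphocytes and adipocytes. With MAK683, where no member was called, they were 4 and 2 for fibroblasts, 3 and 1 for endothelium, and 0 and 1 for epithelium. For MAK683 they were also 2 and 0 each for macrophages and granulocytes, lymphocytes and adipocytes, and 0 and 1 for muscle. Tazemetostat and CPI-1205 had 0 and 0 in each of these lists. In these bulk tumours fewer carcinoma cells and less RNA per cell cannot be told apart, mouse and human reads were not separated here, and the part of other cells in the members' differences was not tested. With the muscle markers as a covariate, the members called lower numbered 8 with CPI-0209 (20.4% of all genes) and 7 with Valemetostat (15.4%).

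Counts of 4 members share exon bases with other genes, by at most 3.06% of the member's exon length. KMT2D shares 223 bases with PRKAG1 on the same strand, and KMT2A, KMT2D, NSD1 and EP300 share 107 to 467 bases with antisense genes, whose reads can only be told apart if the counting used strand. In GRCh38 as counted, KDM6A spans chrX:44873177-45112602, KDM6B chr17:7839904-7854796, EP300 chr22:41091786-41180079 and KMT2A chr11:118436490-118526832. NSD1 spans chr5:177133025-177300215 and NSD2 chr4:1871424-1982207, all on the plus strand. CREBBP (chr16:3725054-3880726), KMT2C (chr7:152134922-152436005) and KMT2D (chr12:49018975-49059774) are on the minus strand. Their Ensembl identifiers, in that order, are ENSG00000147050, ENSG00000132510, ENSG00000100393, ENSG00000118058, ENSG00000165671, ENSG00000109685, ENSG00000005339, ENSG00000055609 and ENSG00000167548.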

How the data were processed

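The authors deposited unnormalized counts for 57500 Ensembl genes in 21 libraries. STAR 2.7.3a, RSEM 1.3.1 and hg38 are named per the submitters' processing notes. Which program counted reads, whether it used strand, the annotation and how mouse reads were handled: not given in the sources used here.

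Libraries were grouped by the labelled treatment. The tests ran in edgeR 4.0.16 under R 4.3.3: filterByExpr (21958 genes), TMM factors (0.946 to 1.08), and 1 robust quasi-likelihood fit with a term per group, two-sided, adjusted over all genes. SE is the log2 fold change divided by the square root of F. CPM per 1000 exon bases uses the tables' gene lengths. DESeq2 1.42.0, limma 3.58.1, other scalings and filters, the replicate block, resubmission terms, a muscle marker covariate, a gene length offset and left-out libraries were alternatives. The pipeline was tested on simulated data.

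The members and lists were chosen with earlier results of these data known. Named genes are the members, for each the 3 genes with the largest r over libraries, and 2 per list with the smallest p among all groups; EZH1, EZH2, SETD1A and ASH1L were added after their values were seen. A listed gene that the rule would name is not reported here. Libraries of a group differed by more than sampling noise (chi-square per gene 5.19 to 51.0), so each counts once. Same-numbered libraries deviated together in 12 of 63 pairs (r over 0.1), so the numbers do not pair them.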

Additional observations from a re-analysis of the deposited data

How the results depend on the processing

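Beside the left-out libraries, 12 alternatives were run for each comparison with vehicle. KDM6B was called lower in 12 of 12 with CPI-0209 (log2 fold change -0.76 to -0.53), Valemetostat (-0.57 to -0.42) and PF-06821497 (-0.62 to -0.43). EP300, KMT2A and NSD1 were called in 12 of 12 with CPI-0209, NSD2 in 9 and, with Valemetostat, KMT2A in 11. No member was called higher against vehicle in any setting. The members called lower changed as follows. With CPI-0209 (5) the number was 8 with the muscle marker covariate, 7 with no filter on low counts (KMT2C and KMT2D added), 6 without the resubmitted libraries (CREBBP added), 4 each with upper-quartile scaling, the 1 CPM filter and the length offset, and 3 to 6 with a library left out. With Valemetostat (2) it was 1 with upper-quartile scaling, 4 with no filter, 4 without the resubmitted libraries and 7 with the covariate. With a library left out it was 1 to 3. By edgeR, EP300 was added with only the 2 groups compared (adjusted p 0.0466) and NSD1 with the resubmission term (adjusted p 0.0436). With PF-06821497 (1) it was 2 with no filter, 3 without the resubmitted libraries, 3 with the covariate and 0 to 3 with a library left out, the 3 being without replicate 1. With CPI-1205 (0) it was 1 with no filter (EP300, -0.65). The count among the 6 compounds (1) was 4 with no filter, 3 without the resubmitted libraries, 5 with the covariate, 2 with the length offset and 1 to 3 with a library left out. In pairs of compounds (10) it was 4 with upper-quartile scaling, 6 with a filter of 1 CPM in 3 libraries, 26 with the covariate, 6 with the length offset and 4 to 13 with a library left out. Resubmitted libraries are those so marked in their titles. The share of all genes called also moved between settings, and it is given above only for some of them. Without that share, a change in a count cannot be read as particular to the members. The cause of these changes was not tested.

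The replicate block gave 8 calls in pairs of compounds, against 10 without it, and 5, 2 and 1 members lower with CPI-0209, Valemetostat and PF-06821497, as without it; 4 of 21 libraries correlated best with their own number.

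Signs changed only among uncalled values. With the covariate KDM6A stood at -0.19 with CPI-0209 and -0.04 with MAK683, and CREBBP at -0.01 with MAK683. With a library left out, the log2 fold change with CPI-0209 ran from -0.10 to 0.32 for KDM6A. With MAK683 it ran from -0.11 to 0.27 for KDM6A, -0.02 to 0.17 for CREBBP, -0.18 to 0.14 for KMT2C and -0.25 to 0.16 for KMT2D. With tazemetostat, where all 8 turned without vehicle replicate 3, it ran from -0.13 to 0.04 for KDM6A, -0.25 to 0.04 for EP300, -0.11 to 0.07 for CREBBP, -0.24 to 0.03 for KMT2A, -0.16 to 0.15 for KMT2C, -0.27 to 0.13 for KMT2D, -0.18 to 0.06 for NSD1 and -0.10 to 0.02 for NSD2.

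Upper-quartile scaling moved the median of all genes with CPI-0209 from -0.02 to 0.12 and the members' median from -0.43 to -0.29. It moved the share of calls that were higher from 54.2% to 67.5% with CPI-0209 and from 55.2% to 67.2% with Valemetostat. Over all genes, no filter gave 43 higher and 3 lower calls with tazemetostat and 124 and 234 with CPI-1205, and DESeq2 gave 41 lower with CPI-1205. The listed genes called lower with CPI-0209 (29) were 15 with upper-quartile scaling, 19 with the 1 CPM filter and 16 with the length offset. With 3 libraries a group, SEs of 0.12 to 0.22 log2 units limit what can be said of small differences.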
